A study of Rattus norvegicus with 5 samples.

Results

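The nuclear genes of the mitochondrial respiratory chain and ATP synthase were examined in lumbar (L4-L6) dorsal horn tissue from Sprague Dawley rats. CCI or SHAM surgery had been done 9 days earlier (day 9). Genes were taken by symbol: Nduf a, b, c, s or v with a number, Sdha to Sdhd, Uqcr, Cox4 to Cox8, or Atp5. These are the beginnings of symbols of nuclear subunits of complexes I to V, so membership was set by name and not by values. Earlier results of these data were known when the group was chosen. The pattern matched 82 of the 17321 rows of the counts table. Of these, 79 had at least 10 counts in at least 2 libraries and were tested among 13511 such genes: 36 rows of complex I, 4 of complex II, 8 of complex III, 14 of the 17 of complex IV, and 17 of complex V. The pattern misses some subunits under other names, and genes of the mitochondrial genome were not analysed here. CCI commonly stands for chronic constriction injury, in which a nerve is loosely ligated to model neuropathic pain, and SHAM for an operation without ligation. The groups held 3 CCI and 2 SHAM libraries. The labels give no age, sex or genotype, and do not say whether a library is 1 animal or a pool, so the p-values reflect library-to-library spread, which may be technical.

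Complexes I to IV pass electrons from NADH and succinate to oxygen and, except for complex II, move protons out of the mitochondrial matrix. Complex V, the ATP synthase, lets protons flow back and makes ATP. Each of these complexes except complex II mixes subunits from the nucleus with subunits from mitochondrial DNA, and spinal cord neurons and glia use them to pay for ion pumping, transmission and axonal transport.

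Nearly every tested gene of the group had a somewhat lower level in CCI, and none of the differences passed the test of the series. Of 79 tested members, 77 had a fitted log2 fold change below 0, against 48.0% of all genes tested, and the exceptions were Uqcrb and Cox6b2. The median log2 fold change (CCI minus SHAM) was -0.31, so that the median SHAM level was 1.24 times the CCI level, while the median over all genes was 0.01. In 53 members (67.1%) all 3 CCI libraries lay below both SHAM libraries, as they did in 18.0% of all genes. In 0 members did all 3 lie above both, against 18.6% of all genes, and in 26 the groups overlapped.

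By edgeR's quasi-likelihood test with Benjamini-Hochberg adjustment over all genes, 0 members reached an adjusted p of at most 0.05 with a fold of at least 1.5. Of all genes, 0.259% were so called lower and 2.58% higher. Without the fold minimum the members called were again 0, beside 0.340% of all genes lower and 2.66% higher, and the lowest adjusted p of a member was 0.0544, for Uqcrh. At an unadjusted p of at most 0.05 there were 44 members (55.7%), each with the lower level in CCI, against 6.31% of all genes lower and 9.64% higher. Other tools gave a few members an adjusted p of at most 0.05, with folds under 1.5. The likelihood ratio test gave 2 (1.17% of all genes were lower by that rule), DESeq2 gave 7 (1.79%), the quasi-likelihood test on all genes with any count gave 1 (0.370%), and limma-voom gave 0. The median SE of a member's log2 fold change was 0.13. For 31 of the 79 the whole 95% interval lay within 1.5-fold in either direction, as it did for 7914 of all 13511 genes tested.

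**Figure D1:**
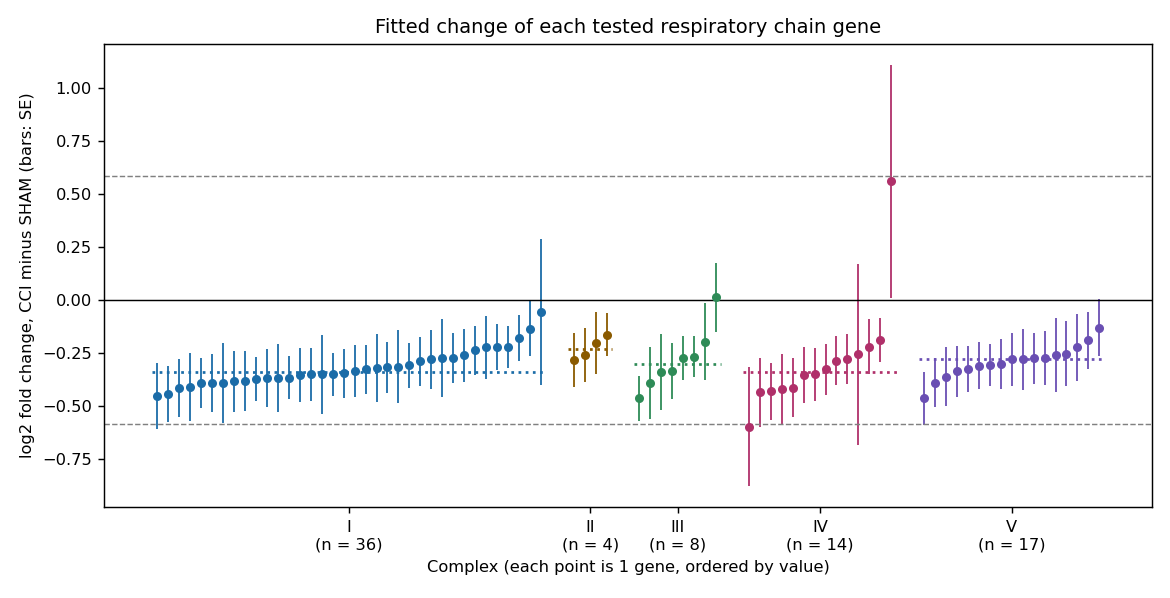
Fitted log2 fold change (CCI minus SHAM, y axis) of each of the 79 tested genes, with SE bars, ordered by value within complexes I to V. Dotted lines are the medians of the complexes, and dashed lines mark 1.5-fold; all but 2 points lie below 0, and Cox4i2, at -0.60, is the lowest.

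The libraries held 20053353 to 23673198 estimated counts, of which the members took 0.757% to 1.18%. Ribosomal RNA rows took 16.0% of CCI 3 and 2.18% to 2.71% of the others. Rn7sl1, the RNA of the signal recognition particle, took 4.07% of SHAM 2 and 2.42% to 2.89% of the others. As for tissue, the neuron markers Slc17a6 (vesicular glutamate transporter) and Slc32a1 (vesicular GABA and glycine transporter) were present. Their levels were 291 to 342 and 106 to 135 CPM, counts scaled to library size by TMM. These markers alone do not place the tissue in the dorsal horn. All 7 motor neuron markers, which belong to the ventral horn, were also detected, with summed levels of 130 to 378 CPM in the CCI libraries and 574 to 832 CPM in the SHAM libraries. In bulk tissue, fewer cells of a type, less RNA per cell and a difference in the tissue taken cannot be told apart.

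The members' levels also differed between libraries of the same group. Their summed level was 9996, 9107 and 8322 CPM in CCI 1, CCI 2 and CCI 3 (mean 9142 ± 837, SD, n = 3), and 10686 and 11849 CPM in SHAM 1 and SHAM 2 (mean 11268 ± 823, SD, n = 2). The highest CCI library thus lay closer to the lower SHAM library than the SHAM libraries lay to each other. CCI 3, with the most ribosomal RNA, was lowest of the 5 libraries for 57 of the 79 tested members, and SHAM 2, with the most Rn7sl1, was highest for 69. SHAM 2 exceeded SHAM 1 in 71 of 79 members, with a median log2 difference of 0.23, whereas over all genes it did so in 50.9% with a median of 0.01. CCI 1 stood at a median of -0.06 against SHAM 1 and -0.29 against SHAM 2. The part of these library properties in the members' difference was not tested.

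**Figure D2:**
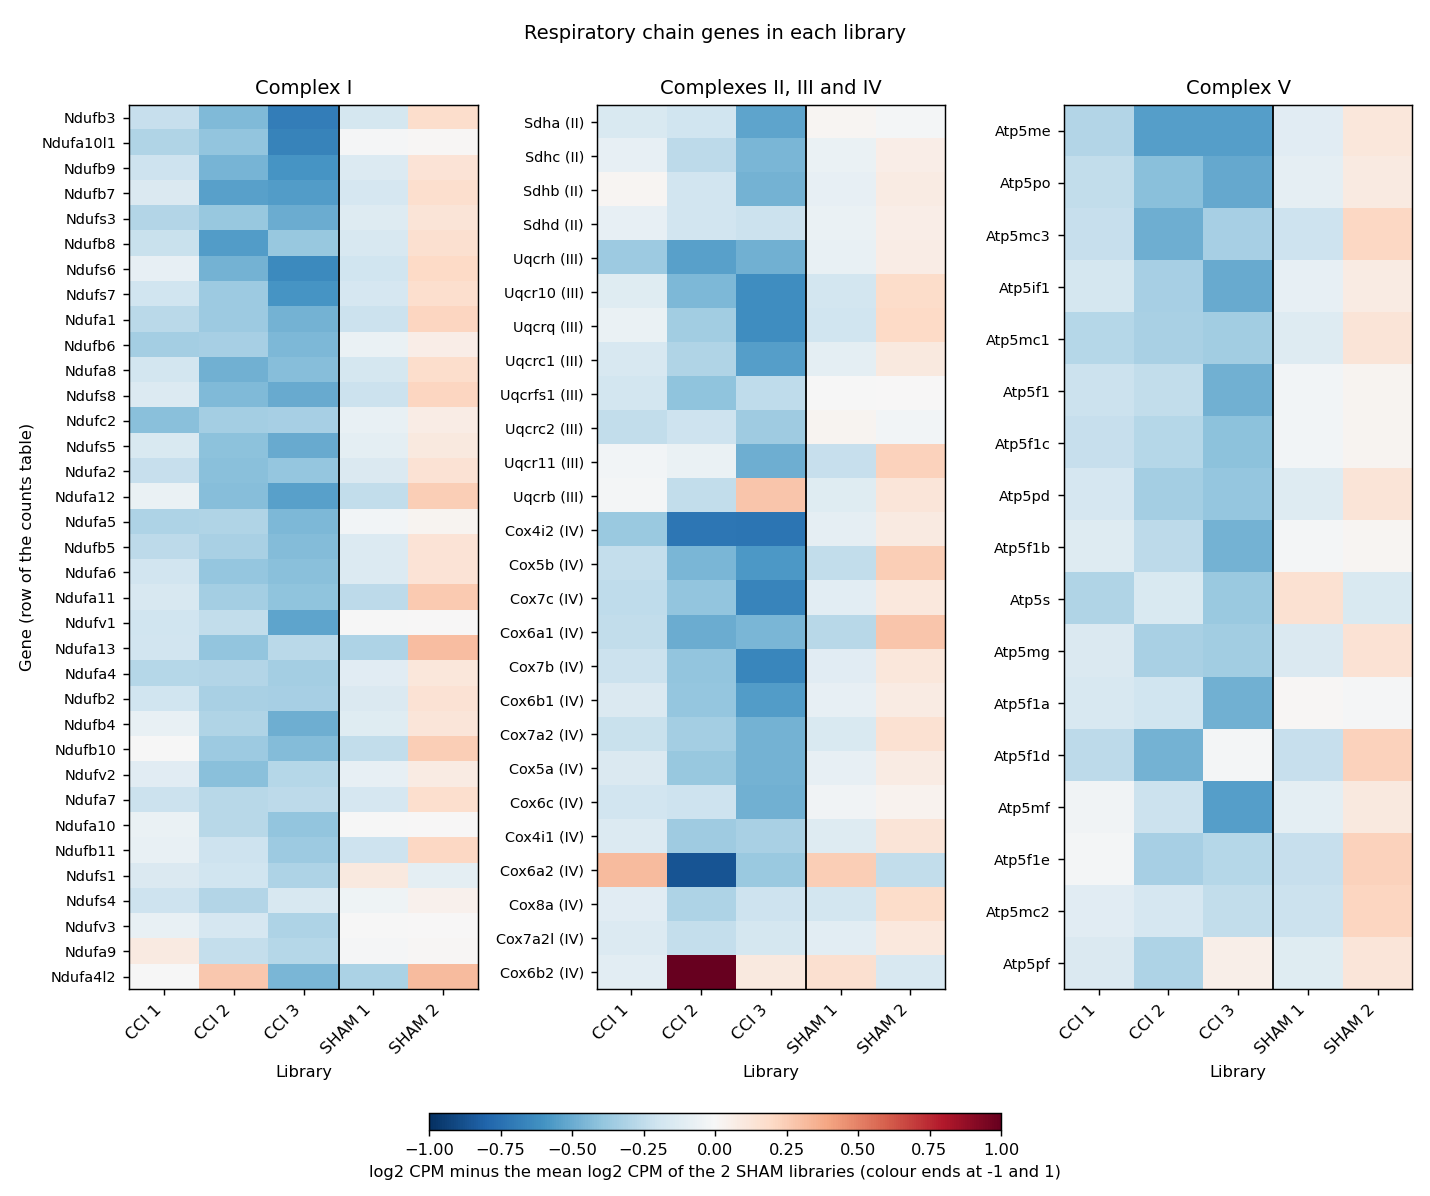
Level of the tested genes in each library, 1 member left out, as log2 CPM minus the mean log2 CPM of the 2 SHAM libraries (colour, which ends at -1 and 1), with genes in rows by complex and libraries in columns. Blue (below the SHAM mean) fills most of the CCI columns, deepest in CCI 3, and SHAM 2 is mostly the redder of the SHAM columns.

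Some results rested on SHAM 2 and CCI 3. Of the 79 tested members, 72 had a fitted value below 0 without SHAM 2, and 70 with CCI 3 and SHAM 2 both left out. Without SHAM 2 the median was -0.20, 5 members had an unadjusted p of at most 0.05 and a lower level (3.93% of all genes), and 54 did not overlap (29.7% of all genes). Without CCI 3 the median was -0.26 and 28 members had such a p (5.42%). With both libraries left out, an alternative chosen after seeing the data, the median was -0.16, 3 members had such a p (4.21%), and 56 did not overlap (37.2%). Without SHAM 1 the median was -0.43 and 75 of 78 members did not overlap (29.6%). Without CCI 1 it was -0.38, and 2 members, Atp5me and Uqcrh, had an adjusted p of at most 0.05 (1.23% of all genes were lower by that rule). Scaling by total count alone left 26 members at an unadjusted p of at most 0.05 (3.69%) and a median of -0.31. No scaling moved the median of all genes by 0.1.

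The promoters of the 5 genes below are shown because each gene has the lowest p of its complex; each sequence is the 250 bases before the start used by RefSeq's promoter table in the build GRCr8, 5′ to 3′ on the gene's strand. Capitals mark matches, on either strand, to letters bound by factors known to drive respiratory chain genes: NRF1 (GCGCANGCG), ETS factors such as GABP (CCGGAAG), YY1 (AAGATGGCG), Sp1 (GGGCGG) and CREB (TGACGTCA). The windows are chr1:161122940-161123189 (+) for Ndufc2, chr1:30764303-30764552 (+) for Sdha, chr5:134790883-134791132 (-) for Uqcrh, chr2:18579171-18579420 (-) for Cox7c and chr14:1464610-1464859 (+) for Atp5me. That start lies 820 bases from the gene start in RefSeq's gene table for Ndufc2 and 72 bases from it for Atp5me, and is the gene start for the other 3.
Ndufc2: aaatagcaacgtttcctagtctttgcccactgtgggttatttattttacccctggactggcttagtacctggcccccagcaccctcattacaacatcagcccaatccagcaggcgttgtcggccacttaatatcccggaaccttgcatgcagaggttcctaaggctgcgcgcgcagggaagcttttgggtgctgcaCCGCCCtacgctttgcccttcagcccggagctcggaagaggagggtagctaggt
Sdha: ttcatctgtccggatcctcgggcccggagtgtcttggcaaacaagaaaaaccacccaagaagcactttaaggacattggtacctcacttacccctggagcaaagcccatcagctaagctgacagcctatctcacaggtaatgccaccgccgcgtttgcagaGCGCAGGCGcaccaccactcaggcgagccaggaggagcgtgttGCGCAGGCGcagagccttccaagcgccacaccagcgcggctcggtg
Uqcrh: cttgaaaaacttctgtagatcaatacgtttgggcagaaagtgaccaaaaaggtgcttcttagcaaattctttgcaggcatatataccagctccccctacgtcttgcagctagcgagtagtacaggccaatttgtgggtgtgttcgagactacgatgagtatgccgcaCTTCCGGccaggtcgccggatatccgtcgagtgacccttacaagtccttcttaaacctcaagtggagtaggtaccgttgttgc
Cox7c: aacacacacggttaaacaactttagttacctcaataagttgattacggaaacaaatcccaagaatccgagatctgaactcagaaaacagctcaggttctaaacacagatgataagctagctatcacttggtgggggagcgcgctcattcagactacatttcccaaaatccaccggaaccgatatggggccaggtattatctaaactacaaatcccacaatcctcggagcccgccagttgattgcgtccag
Atp5me: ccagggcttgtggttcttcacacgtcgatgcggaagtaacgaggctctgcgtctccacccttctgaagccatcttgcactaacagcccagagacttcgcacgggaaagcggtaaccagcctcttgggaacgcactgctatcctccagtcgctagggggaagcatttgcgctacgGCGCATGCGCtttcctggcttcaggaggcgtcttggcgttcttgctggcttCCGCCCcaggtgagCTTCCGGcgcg
The Ndufc2 window held 1 Sp1 match, the Sdha window 2 NRF1 matches and the Uqcrh window 1 ETS match, while none of the 5 motifs was found in the Cox7c window. The Atp5me window held an ETS match, an Sp1 match and 2 NRF1 matches that overlap on opposite strands of 1 stretch. A match is a description of letters, not a site or a cause.

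Of the 82 members, 71 were matched to a promoter (69 by symbol and 2 by synonym), and in 49 of them the promoter's start was also the start of the gene in RefSeq's gene table. Among 69 tested members with a promoter, the NRF1 letters stood in 15 (21.7%), against 10.6% of 10689 other tested genes and 5.09% of all 33469 promoters of that length. The ETS letters stood in 19 (27.5%), against 13.8% and 7.27%. For Sp1 the order was otherwise, with 24 members (34.8%) against 56.2% and 30.5%. CREB letters stood in 3 members (4.35%, against 2.82% and 1.59%) and YY1 letters in 1 (1.45%, against 1.12% and 0.693%). The median log2 fold change was -0.33 in members with an NRF1 match and -0.31 in those without, and it was -0.33 and -0.31 likewise for ETS. For Sp1 it was -0.29 with and -0.31 without a match. The 3 members with CREB letters had a median of -0.24 against -0.32 in the others, and the 1 member with YY1 letters was at -0.13 against a median of -0.31.

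Complex I, the NADH dehydrogenase, takes electrons from NADH and hands them to ubiquinone. Its 36 rows had a median log2 fold change of -0.34, and all 36 were below 0. In 25 (69.4%) the groups did not overlap, against 18.0% of all genes in that direction. Without SHAM 2 that median was -0.20. The 7 core subunits of the matrix arm, which hold the flavin and the iron-sulphur clusters, had fold changes from -0.39 to -0.22, and 6 of them did not overlap. Ndufs3, a core subunit near the ubiquinone site, was at 62.0, 58.6 and 53.9 CPM in the CCI libraries and at 69.4 and 83.3 CPM in the SHAM libraries. All 3 CCI values lay below both SHAM values, and the log2 fold change of -0.39 (SE 0.12) had an adjusted p of 0.138.

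Ndufv1, which binds NADH and the flavin, was at 204, 198 and 163 CPM in CCI against 234 and 236 CPM in SHAM, with a fitted difference of -0.32 on the log2 scale (SE 0.12). Ndufv2, its iron-sulphur partner, had a log2 fold change of -0.27, and Ndufs1, the largest core subunit, one of -0.22. Neither Ndufv2 nor Ndufs1 overlapped between the groups. Ndufs7, which carries the last cluster before ubiquinone, had a log2 fold change of -0.38 without overlap. In Ndufs8, another iron-sulphur subunit, the value was -0.37 (SE 0.16), but CCI 1 (54.1 CPM) lay above SHAM 1 (51.3 CPM).

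The accessory subunits of complex I, which surround the core and are needed for its assembly and stability, gave similar values. The 9 of the matrix arm had a median of -0.33, and those of the membrane arm had medians of -0.35 (7 subunits of the a, c and s series) and -0.36 (10 of the b series). Ndufc2, an accessory subunit of the membrane arm, had the lowest p of the complex. Its level was 57.7, 60.9 and 61.3 CPM in CCI against 73.1 and 81.4 CPM in SHAM (log2 fold change -0.36, SE 0.10, adjusted p = 0.108). The CCI libraries were within a narrow band and CCI 1, not CCI 3, was the lowest. Ndufb6 was at 41.0, 41.3 and 38.1 CPM against 49.6 and 54.2 CPM (log2 fold change -0.37, adjusted p = 0.115). Ndufa5 was at 62.7, 63.1 and 56.8 CPM against 75.9 and 79.2 CPM (log2 fold change -0.35, adjusted p = 0.121). In both of these accessory subunits the gap between the groups was wider than either group's range. Ndufb3 had the lowest fitted value of the complex, -0.45 (SE 0.16), with 67.0, 58.1 and 48.8 CPM against 69.9 and 88.8 CPM. Its SHAM libraries were further apart than CCI 1 and SHAM 1. At the other end of the accessory subunits, Ndufa9, which sits at the junction of the arms, had a fitted value of -0.13 (SE 0.13) and overlapped.

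The 3 rows below carry complex I names without being ordinary complex I subunits. Ndufa4, now placed in complex IV, was at 118, 117 and 114 CPM in CCI against 132 and 156 CPM in SHAM (log2 fold change -0.31, SE 0.10, adjusted p = 0.191). Its paralog Ndufa4l2 was far less abundant, at 1.48 to 2.55 CPM over the 5 libraries, with a fitted value of -0.06 (SE 0.34) whose sign turned without CCI 3 or without SHAM 2. Ndufa10l1 is a copy of Ndufa10, and reads that fit both rows were split by the authors' estimation, so both are uncertain. The Ndufa10l1 value was -0.44 (SE 0.13, adjusted p = 0.131) and that of Ndufa10 was -0.24 (SE 0.12). The share of Ndufa10l1 in the per-length level of the pair was 23.1% ± 1.08 (SD, n = 3) in CCI and 25.7% ± 0.133 (SD, n = 2) in SHAM.

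Complex II, succinate dehydrogenase, links the citric acid cycle to the chain, and all its subunits are nuclear. Its 4 members had the smallest median of the 5 complexes, -0.23, and none had an unadjusted p of at most 0.05; differences between complexes were not tested. The flavin subunit Sdha was at 445, 431 and 343 CPM in CCI against 500 and 488 CPM in SHAM (log2 fold change -0.28, SE 0.13, adjusted p = 0.329). CCI 3 stood well below the other CCI libraries. The iron-sulphur subunit Sdhb was at 144, 125 and 102 CPM against 134 and 151 CPM, so that CCI 1 lay between the SHAM libraries (log2 fold change -0.20, SE 0.15). The membrane anchors Sdhc and Sdhd had values of -0.26 (SE 0.13) and -0.16 (SE 0.10), both without overlap, though CCI 1 nearly equalled SHAM 1 in each. All 4 intervals lay within 1.5-fold in either direction.

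Complex III passes electrons from ubiquinol to cytochrome c. Its 8 members had a median log2 fold change of -0.30, from -0.46 to 0.01. Of them, 4 (50%) were lower without overlap, against 18.0% of all genes. Uqcrh, the acidic hinge protein that helps cytochrome c1 meet cytochrome c, had the lowest p of all 79 members. It was at 103, 90.9 and 95.0 CPM in CCI against 126 and 140 CPM in SHAM. All 3 CCI values lay below both SHAM values, with a gap of more than the range of either group. The log2 fold change was -0.46 (SE 0.10, 95% interval -0.70 to -0.23, adjusted p = 0.0544). The core proteins and the Rieske protein, which form the frame of the complex and its iron-sulphur centre, did not overlap between the groups. Uqcrc1 was at 273, 248 and 208 CPM against 286 and 326 CPM (log2 fold change -0.33, SE 0.13). Uqcrc2 was at 226, 232 and 210 CPM against 273 and 263 CPM (log2 fold change -0.27, SE 0.10). Uqcrfs1, the Rieske protein, was at 143, 123 and 136 CPM against 161 and 162 CPM (log2 fold change -0.27, SE 0.10).

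Among the other small subunits of complex III the groups overlapped in each case. Uqcr10, at -0.39 (SE 0.17), and Uqcrq, at -0.34 (SE 0.18), had fitted values as low as those of the core proteins with wider errors. Uqcr11, which is 1 of 6 tested members with fractional estimated counts, had a value of -0.20 (SE 0.18). Uqcrb, the ubiquinone-binding protein, did not share the direction. It was at 33.6, 28.7 and 41.5 CPM in CCI against 31.4 and 37.2 CPM in SHAM (log2 fold change 0.01, SE 0.16, 95% interval -0.36 to 0.39). CCI 3, lowest for most members, was its highest library, and the sign of its fitted value turned under total count scaling, under limma-voom, and without CCI 3 or SHAM 1.

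Complex IV, cytochrome c oxidase, reduces oxygen to water, and several of its nuclear subunits come in isoforms tied to tissue or oxygen supply. The 10 general forms had a median log2 fold change of -0.35, and 9 of them had an unadjusted p of at most 0.05. Cox7c, a small membrane subunit, had the lowest p of the complex. Its values were 98.3, 88.9 and 74.0 CPM in CCI against 109 and 126 CPM in SHAM (log2 fold change -0.43, SE 0.14, adjusted p = 0.160). Cox7b was at 109, 96.4 and 80.7 CPM against 117 and 137 CPM (log2 fold change -0.41, SE 0.14, adjusted p = 0.189). In both small subunits CCI 3 was the lowest library and no CCI value reached the SHAM values. Cox7a2 was at 70.3, 64.9 and 59.0 CPM against 73.9 and 91.0 CPM (log2 fold change -0.35, SE 0.13).

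The larger nuclear subunits of complex IV gave similar values. Cox4i1, which carries regulation by ATP, was at 297, 256 and 261 CPM in CCI against 300 and 358 CPM in SHAM (log2 fold change -0.28, SE 0.12, adjusted p = 0.301). CCI 1 and SHAM 1 were nearly equal in that subunit. Cox5a was at 146, 124 and 116 CPM against 153 and 171 CPM (log2 fold change -0.33, SE 0.12). For Cox5b the log2 fold change was -0.44 (SE 0.16), but SHAM 1 (114 CPM) lay just below CCI 1 (115 CPM), and SHAM 2 (160 CPM) stood alone. Cox6a1 and Cox8a overlapped for the same library: CCI 1 exceeded SHAM 1 in both.

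The second isoforms were rare. On the per-length scale of the deposited TPM-named table, Cox4i2, a form known from lung and low oxygen, made up 0.667% ± 0.0419 (SD, n = 3) of the Cox4i1 and Cox4i2 level in CCI and 0.837% ± 0.0278 (SD, n = 2) in SHAM, without overlap. In counts Cox4i2 was at 2.18, 1.71 and 1.70 CPM against 2.64 and 3.0 CPM. Its log2 fold change of -0.60 (SE 0.28, adjusted p = 0.345) was the lowest of the members and the only one beyond 1.5-fold downward, with an interval that reached above 0. Cox6a2, the heart and muscle form, was 0.802% ± 0.256 (SD, n = 3) of its pair in CCI and 0.774% ± 0.396 (SD, n = 2) in SHAM, so the groups could not be separated. Cox6b2, known from testis, was at 0.42, 1.07 and 0.48 CPM against 0.50 and 0.40 CPM. Its log2 fold change of 0.56 (SE 0.55) rested on CCI 2. The heart and muscle form Cox8b had 1, 4 and 8 counts in CCI and 2 and 3 in SHAM, the testis form Cox8c had 2, 2 and 5 against 0 and 3, and the row named Cox6c-ps1 had 1, 1 and 7 against 2 and 1. These 3 rows were not tested. Cox7a2l, a relative of Cox7a2 that joins complexes III and IV, was no rare form: it had a fitted value of -0.19 (SE 0.10) and 36.1% ± 2.45 (SD, n = 3) of the pair's level in CCI against 33.4% ± 0.269 (SD, n = 2) in SHAM.

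**Figure D3:**
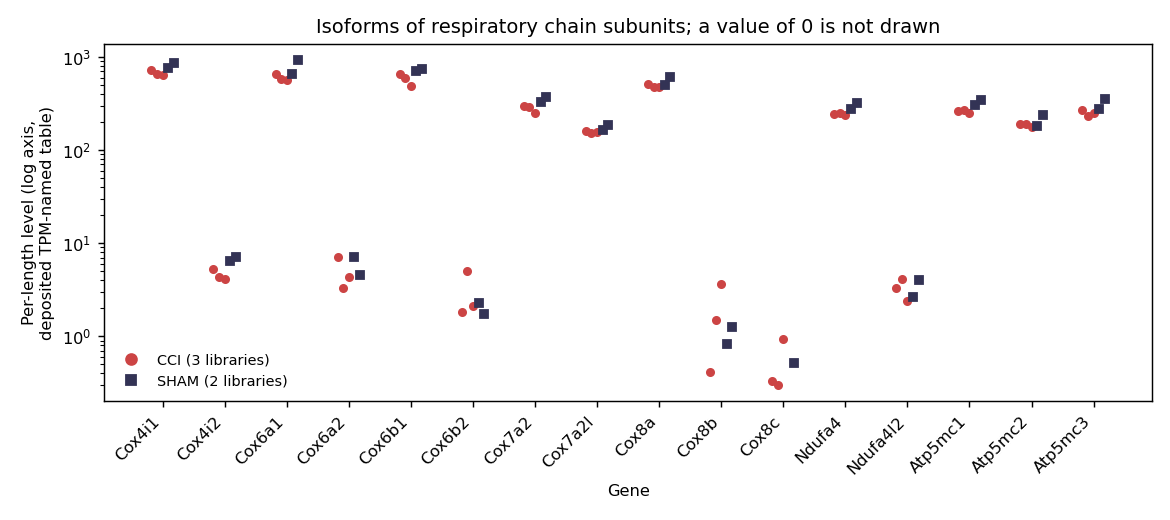
Per-length level (y axis, log scale, deposited TPM-named table) of isoforms of complex IV, Ndufa4 and c-ring genes, with 1 point per library: circles for CCI (3 libraries), squares for SHAM (2 libraries). The general forms stand far above Cox4i2, Cox6a2, Cox6b2, Cox8b, Cox8c and Ndufa4l2, while Cox7a2l and the 3 c-ring genes are of similar level to their partners.

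Complex V, the ATP synthase, pairs a catalytic head in the matrix with a rotor in the membrane. Its 17 rows had a median log2 fold change of -0.28, and all were below 0. Of them, 12 (70.6%) did not overlap, against 18.0% of all genes in that direction. The catalytic beta subunit Atp5f1b was the most abundant member by counts and per length, at 1192, 1085 and 940 CPM in CCI against 1287 and 1317 CPM in SHAM (log2 fold change -0.28, SE 0.13, adjusted p = 0.325). The alpha subunit Atp5f1a was at 919, 895 and 734 CPM against 1036 and 1015 CPM (log2 fold change -0.27, SE 0.13). In both head subunits the SHAM libraries were close together and CCI 3 was the lowest. The gamma subunit Atp5f1c, which turns inside the head, was at 219, 211 and 194 CPM against 252 and 262 CPM (log2 fold change -0.31, SE 0.10, adjusted p = 0.176). The small subunits of the central stalk, Atp5f1d and Atp5f1e, overlapped, with values of -0.26 (SE 0.17) and -0.22 (SE 0.16), and without SHAM 2 the sign of Atp5f1e turned.

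In the peripheral stalk, which holds the head still against the rotor, 3 of the 4 members did not overlap. Atp5po, the subunit that joins stalk and head, was at 136, 121 and 113 CPM in CCI against 151 and 172 CPM in SHAM (log2 fold change -0.39, SE 0.12, adjusted p = 0.132). Atp5pf, another stalk subunit, had the smallest difference of the complex, -0.13 (SE 0.14), and overlapped. Of the membrane subunits, Atp5me, subunit e, which takes part in the pairing of ATP synthases, was at 71.6, 59.8 and 59.8 CPM against 80.9 and 94.8 CPM (log2 fold change -0.46, SE 0.12, adjusted p = 0.0955). The highest CCI value lay below the lower SHAM value. The 3 c-ring genes encode the same mature protein. Atp5mc1 had 37.5% ± 1.29 (SD, n = 3) of their per-length level in CCI and 38.3% ± 2.23 (SD, n = 2) in SHAM, Atp5mc2 had 26.7% ± 0.819 and 24.6% ± 1.0, and Atp5mc3 had 35.7% ± 1.98 and 37.1% ± 1.18. Their log2 fold changes were -0.32, -0.19 and -0.36, and that of Atp5mc2 turned its sign without SHAM 2. Atp5if1, the inhibitor of ATP hydrolysis, had a value of -0.34 (SE 0.12) and no overlap.

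The share of each complex in the summed transcripts was similar in both groups. On the per-length scale, the members summed to 19493 ± 1785 (SD, n = 3) in CCI and 24010 ± 1988 (SD, n = 2) in SHAM, a ratio of 0.812. These sums were not divided by the total over all rows, which was 1050114 in SHAM 2 and 903964 to 927232 in the others. In CPM the ratio was 0.811. Complex I held 30.7% ± 0.278 of that sum in CCI and 30.9% ± 0.487 in SHAM, complex III 7.71% ± 0.0136 and 7.73% ± 0.0297, complex IV 26.8% ± 0.240 and 27.1% ± 0.292, and complex V 31.2% ± 0.138 and 30.9% ± 0.578. The differences in complexes I, III and V were smaller than the larger SD of the groups. Those in complexes II and IV slightly exceeded the larger SD. Complex II, the smallest share, was 3.57% ± 0.126 in CCI and 3.38% ± 0.171 in SHAM. Per-length levels were highest for Atp5f1b (mean of 884 over the 5 libraries), Atp5me (855), Cox6c (809) and Cox4i1 (731). The lowest of the tested members were Cox6b2 (2.60) and Ndufa4l2 (3.31). Over the 79 members, higher level went weakly with lower fold change (Spearman's rho -0.30), a description over genes that share libraries.

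**Figure D4:**
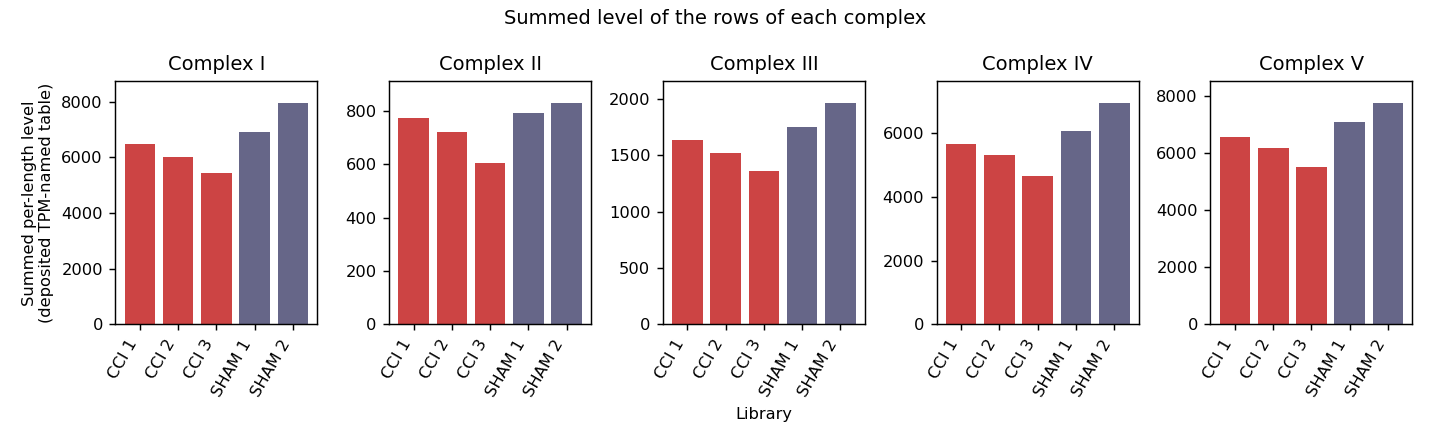
Summed per-length level (y axis, from 0, deposited TPM-named table) of the rows of complexes I to V, 1 bar per library, CCI in red and SHAM in blue. In each complex the 3 CCI bars lie below both SHAM bars, CCI 3 is lowest and SHAM 2 is highest. SHAM 2 also had the highest total over all rows of that table (1050114, against 903964 to 927232 in the others).

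Genes that work beside the members also had negative medians, closer to 0. The 16 other subunits and electron carriers had a median log2 fold change of -0.20, and 0 were called. Of these 16, 10 (62.5%) were lower in CCI without overlap, against 18.0% of all genes. Cycs, cytochrome c, was at 205, 200 and 210 CPM in CCI against 253 and 249 CPM in SHAM (log2 fold change -0.29, SE 0.09, adjusted p = 0.165). Usmg5, a small ATP synthase subunit outside the name pattern, had a value of -0.40 (SE 0.11, adjusted p = 0.109). Cyc1, cytochrome c1, was at -0.34 and Ndufab1, the acyl carrier subunit of complex I, at -0.30, so the subunits missed by the pattern had values within the members' range. The 41 assembly factors had a median of -0.14, and 18 (43.9%) were lower without overlap. Of these factors only Pet100 reached an adjusted p of at most 0.05. Pet100, which helps assemble complex IV, was at 27.2, 24.7 and 22.9 CPM in CCI against 35.6 and 37.2 CPM in SHAM, with a fitted difference of -0.54 on the log2 scale (SE 0.11, adjusted p = 0.0404), under the fold minimum.

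Other mitochondrial lists had negative medians as well, with no gene called lower. The 20 genes of the citric acid cycle and pyruvate dehydrogenase had a median of -0.23. Of them, 13 (65%) were lower without overlap, against 18.0% of all genes. The lowest p values were those of Dlat (-0.36, adjusted p = 0.139) and Sucla2 (-0.30, adjusted p = 0.160). The 71 mitochondrial ribosomal proteins had a median of -0.19, and 28 (39.4%) were lower without overlap. For 26 carriers and import genes the median was -0.19. In that list Ucp2, an uncoupling protein family member abundant in immune cells, rose by 1.16 on the log2 scale (SE 0.16, adjusted p = 0.00482), while Slc25a4, which exchanges ADP for ATP, was at -0.34 (adjusted p = 0.207). Glycolysis genes had a median of -0.11 over 22 genes, with 16 below 0. In that list Hk2, a hexokinase that starts glycolysis, rose by 1.45 (SE 0.15, adjusted p = 0.00161). Ldha, with the next lowest p, was at 0.52 (SE 0.14, adjusted p = 0.0908). The 77 tested cytosolic ribosomal proteins had a median of 0.10, with 2 lower and 9 higher without overlap. Both counts were smaller shares than the 18.0% lower and 18.6% higher of all genes.

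The 23 regulators of mitochondrial biogenesis had a median of -0.01, and none was called. Of them, 5 were lower and 4 higher without overlap, beside 18.0% and 18.6% of all genes. Nrf1 had a log2 fold change of 0.09 (SE 0.12), Gabpa, an ETS factor, 0.26 (SE 0.14), Tfam, which packages and transcribes mitochondrial DNA, -0.02 (SE 0.10), and the coactivator Ppargc1a -0.16 (SE 0.14). The lowest p values of that list were those of the nuclear receptors Esrrb (-1.24, SE 0.33, adjusted p = 0.0955) and Esrra (-0.37, SE 0.16, adjusted p = 0.30). Esrrg had the next lowest p, with a value of -0.51 (SE 0.22, adjusted p = 0.322), also lower without overlap. Esrra was at 67.6, 56.7 and 45.8 CPM in CCI against 75.4 and 71.0 CPM in SHAM, without overlap. Its CCI libraries had the same order as the members' sum, but its SHAM libraries had the opposite order. A link between Esrra and the members was not tested.

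Cell type markers differed between the groups as well, and their part in the members' difference was not tested. Oligodendrocyte markers had a median of -0.36 and none called. Of these markers 9 of 10 lay lower in CCI without overlap, against 18.0% of all genes. Their sums were 33545, 28997 and 27903 CPM in CCI 1, CCI 2 and CCI 3. In SHAM 1 and SHAM 2 the sums were 39602 and 38817 CPM. The CCI libraries had the same order as in the members' sum, but the SHAM libraries, which differed little, had the opposite order. All 14 microglia markers had fitted values above 0 and 11 were called higher, with a median of 1.86 over the list. They summed to 1236 to 1422 CPM in CCI against 388 and 439 CPM in SHAM. Of 18 neuron markers 3 were called lower, among them the neurofilament genes Nefm (-1.42, adjusted p = 0.0190) and Nefh (-1.23, adjusted p = 0.0303), and the median was -0.15. Of these 18, 6 were above 0, from Slc17a6 (0.02) to Syt1 (0.21), and Rbfox3, a general marker of neuronal nuclei, was at -0.03. The neuron list summed to 9867 to 12092 CPM in CCI against 15768 and 18726 CPM in SHAM. Without Nefl, Nefm and Nefh, a sum added after seeing the data, the other 15 summed to 7217, 6448 and 6708 CPM in CCI against 7927 and 7703 CPM in SHAM. Of the 7 motor neuron markers 4 were called lower, with a median of -1.47. Of 9 astrocyte markers 1 was called lower and 2 higher (median 0.21). Fibroblast markers summed to 146, 804 and 672 CPM in CCI against 155 and 190 CPM in SHAM, and Schwann cell markers to 110, 317 and 642 CPM against 94.2 and 108 CPM, with none called in either list. CCI 1 was thus near the SHAM libraries in those lists. No call was made among 11 endothelial and pericyte markers (median 0.00) or 6 tested muscle markers (median 0.05).

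**Figure D5:**
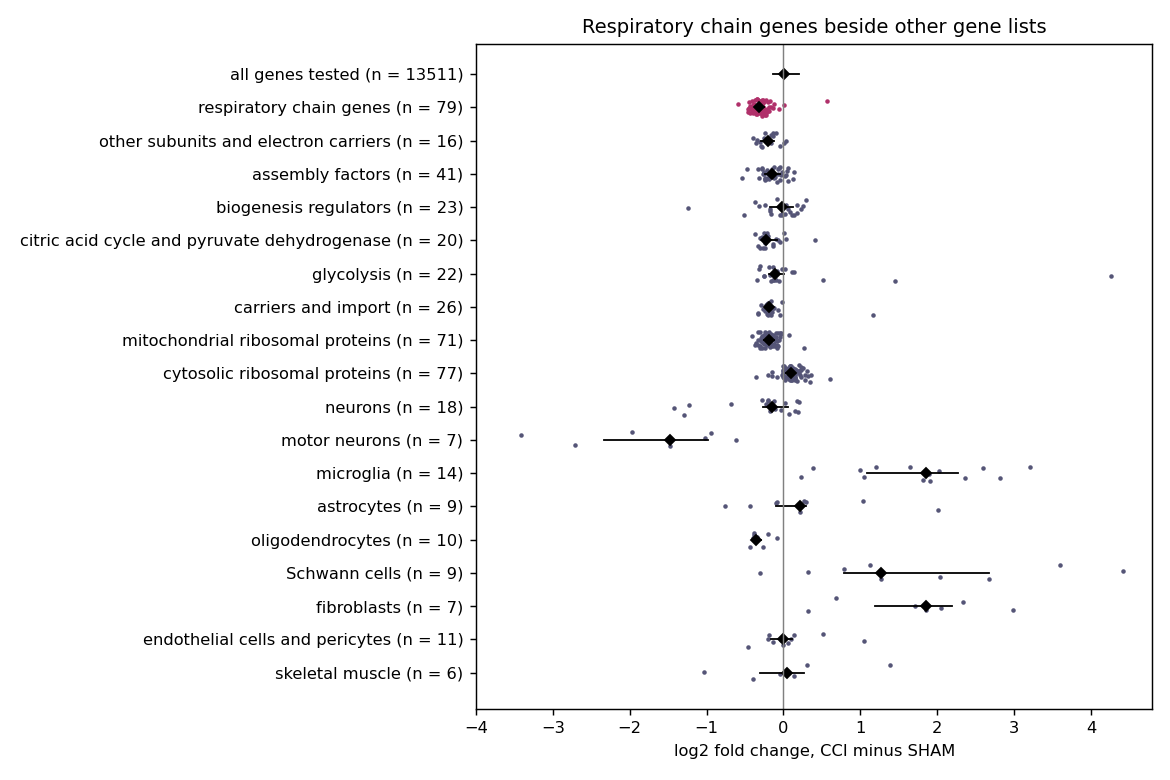
Log2 fold change (CCI minus SHAM, x axis) of the tested genes of each list, 1 point per gene, with the median (diamond) and the interquartile range (black line); for all 13511 genes only these 2 marks are drawn. The respiratory chain genes form a narrow band centred at -0.31, the microglia list is centred at 1.86 and the motor neuron list at -1.47.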

How the data were processed

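RNA of 3 CCI and 2 SHAM libraries was read by Illumina HiSeq, per the labels. The authors deposited estimated counts with 1 row per gene symbol, for which the submitters' processing notes name kallisto 0.44.0, edgeR and rn6. They also deposited a table named TPM. Its columns do not sum to 1 total, so that deposited table was treated as a signal and used to compare levels between genes. The labels name trimmed mean of M-values as its scaling. For the gene annotation and any filter by the authors, the source is not given in the sources used here.

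Estimated counts were rounded to whole numbers. Genes with at least 10 counts in at least 2 libraries were tested with edgeR 4.0.16 (R 4.3.3), using TMM scaling and the robust two-sided quasi-likelihood test on 3 residual degrees of freedom, and Benjamini-Hochberg adjustment over all of them. A call needed a change of at least 1.5-fold besides an adjusted p of at most 0.05. The SE is the absolute log2 fold change over the root of F, and 95% intervals use each gene's total degrees of freedom. Scripts were tested on simulated data. Replicate numbers are only names in accession order.

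The members and lists were chosen with earlier results of these data known. Named members are those called under either rule, core subunits, isoform sets, and members that went against their complex or were not tested. They also include, in each complex, the 3 lowest p and the 2 largest changes with a mean of at least 1 CPM. Of some other lists, the 1 or 2 genes with the lowest p are named. Other genes named were chosen after their values were seen. Promoters came from RefSeq (GRCr8). Alternatives were other scalings, filters and tests (limma 3.58.1, DESeq2 1.42.0), limma on the log2 of the deposited TPM-named table (pseudocount 0.5 or 0.1), and leaving out libraries. Chosen after seeing the data were leaving out CCI 3 and SHAM 2 together, summing Ndufa10 and Ndufa10l1, and leaving out 7 rows that are no ordinary subunit. Figures were drawn with matplotlib 3.10.9. Of the members, 1 is counted in the totals and is not reported here by name.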

Additional observations from a re-analysis of the deposited data

How the results depend on the processing

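No member passed both thresholds under any alternative run. The count of members at an adjusted p of at most 0.05 was 0, and became 1 (Uqcrh) with no low-count filter, 2 (Atp5me and Uqcrh) by the likelihood ratio test, 7 (Atp5f1c, Atp5me, Atp5po, Ndufa5, Ndufb6, Ndufc2 and Uqcrh) by DESeq2, and 0 to 2 when each library was left out in turn. The 44 members at an unadjusted p of at most 0.05 (6.31% of all genes were lower by that rule) became 26 with total count scaling (3.69%). They became 28 without CCI 3 (5.42%) and 58 without CCI 1, where 1111 of 13462 genes were lower by that rule. With CCI 3 and SHAM 2 left out, the median log2 fold change was -0.16 over all members. By complex it was -0.17 in complex I, -0.09 in complex II, -0.12 in complex III, -0.16 in complex IV and -0.18 in complex V. Leaving out single libraries gave medians of -0.45 to -0.20 in complex I, -0.34 to -0.16 in complex II, -0.41 to -0.22 in complex III, -0.45 to -0.23 in complex IV and -0.41 to -0.20 in complex V. The count of all genes called, 384, became 71 without SHAM 1, 88 without SHAM 2, 766 without CCI 1, 646 by the likelihood ratio test, 614 by DESeq2 and 14 without CCI 3 and SHAM 2. With 1 SHAM library left, that library is assumed to vary like the CCI libraries.

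Over all 79 tested members, the 77 below 0 became 72 without SHAM 2 and 70 with CCI 3 and SHAM 2 left out. Of the 47 members followed by name through the alternatives, signs turned in 5. Uqcrb (0.01) was at -0.00054 with total count scaling, -0.0022 by limma-voom and -0.018 with CCI 3 and SHAM 2 left out, and ran from -0.14 (without CCI 3) to 0.13 (without SHAM 2) over single libraries. Over single libraries Ndufa4l2 ran from -0.35 to 0.28 (without SHAM 2), Cox6a2 from -0.64 to 0.014 (without SHAM 1), Atp5f1e from -0.44 to 0.020 (without SHAM 2) and Atp5mc2 from -0.39 to 0.035 (without SHAM 2). Without CCI 3 and SHAM 2, Ndufa4l2 was at 0.45, Atp5f1e at 0.056 and Atp5mc2 at 0.068. The causes were not tested. Of the remaining values for single genes, 920 kept their direction and their side of the threshold. No paired analysis was possible because the labels give the libraries no replicate numbers that the groups share. The smallest p that an exact permutation test of 3 against 2 libraries allows is 0.1.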
